A study of Mus musculus with 10 samples.

Results

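Transcripts of 9 transcription factors of the hepatocyte lineage were compared in whole mouse liver after napabucasin and after vehicle. The factors are Hnf4a, Foxa1, Foxa2, Foxa3, Cebpa, Cebpb, Onecut1, Onecut2 and Prox1, taken by symbol as 9 of the 54532 genes in the deposited count table. Napabucasin (BBI608), a naphthoquinone, is known as a drug that blocks transcription driven by STAT3. The 5 treated mice received napabucasin at 20 mg per kg body weight by gavage once a day for 7 days, and the 5 control mice received 1% NaCMC, a cellulose suspension, on the same schedule. The labels name no genotype, and the sources used here give no strain, sex or age of the mice. All 9 factors passed the filter on low counts, which left 14244 genes for the test.

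These factors form a network in which each binds regulatory DNA of hepatocyte genes and of the other factors. HNF4A is a nuclear receptor needed for the expression of many hepatocyte genes, the FOXA proteins open packed chromatin as pioneer factors, and the C/EBP proteins are leucine zipper factors that drive gluconeogenic, urea cycle and acute phase genes. The ONECUT proteins (Onecut1 encodes HNF6) act in the choice between hepatocyte and bile duct fates, and the homeobox factor PROX1 is needed in mice for hepatoblasts to migrate and for lymphatic vessels to form.

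Start-site sequences are shown for the 4 windows in which a short core motif of a FOXA or ONECUT factor was found, since cross-binding is what ties the network together. RefSeq start-site windows (GRCm38.p6, 250 bases before to 50 bases after a start) were used for 8 of the 9 factors and came to 12 windows. Onecut2 was left out, so counts over these windows do not cover it. The letters searched on both strands were TGTTTAC and TGTTTGC for FOXA, AAAGTCC for HNF4A, TTGCNNAA for C/EBP, and ATCGAT and ATCAAT for ONECUT. A match is a description of the letters and not a binding site. Capitals mark the match in each window, written 5′ to 3′ on the strand of the gene.
Prox1, chr1:190169466-190169765, minus strand, FOXA letters: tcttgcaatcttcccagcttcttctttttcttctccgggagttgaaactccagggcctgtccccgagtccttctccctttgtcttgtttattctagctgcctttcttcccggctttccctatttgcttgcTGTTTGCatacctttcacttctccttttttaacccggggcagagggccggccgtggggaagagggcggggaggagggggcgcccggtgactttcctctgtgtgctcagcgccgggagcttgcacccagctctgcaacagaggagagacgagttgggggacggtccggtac
Foxa1, chr12:57546062-57546361, minus strand, FOXA letters: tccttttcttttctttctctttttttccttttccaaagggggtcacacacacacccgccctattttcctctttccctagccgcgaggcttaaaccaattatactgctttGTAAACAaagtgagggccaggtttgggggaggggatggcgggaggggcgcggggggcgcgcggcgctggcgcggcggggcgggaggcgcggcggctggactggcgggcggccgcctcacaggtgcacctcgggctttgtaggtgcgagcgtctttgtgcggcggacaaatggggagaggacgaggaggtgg
Hnf4a, chr2:163506607-163506906, plus strand, ONECUT letters: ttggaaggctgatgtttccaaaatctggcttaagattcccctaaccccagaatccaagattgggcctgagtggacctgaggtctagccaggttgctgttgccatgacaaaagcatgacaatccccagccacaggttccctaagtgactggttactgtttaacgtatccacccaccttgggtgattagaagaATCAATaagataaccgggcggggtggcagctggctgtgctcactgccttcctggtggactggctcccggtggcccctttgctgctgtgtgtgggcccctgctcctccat
Foxa2, chr2:148046920-148047219, minus strand, ONECUT letters: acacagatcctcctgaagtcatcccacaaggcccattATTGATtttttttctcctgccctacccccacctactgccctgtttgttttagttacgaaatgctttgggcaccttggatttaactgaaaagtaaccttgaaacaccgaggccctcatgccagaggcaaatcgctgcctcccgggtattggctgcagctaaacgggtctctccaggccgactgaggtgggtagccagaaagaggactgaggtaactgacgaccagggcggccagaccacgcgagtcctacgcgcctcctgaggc

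FOXA letters stood in 2 of the 12 windows, at -120 from the start in Prox1 and -141 in Foxa1, against 8.48% of 32851 windows of all genes. ONECUT letters also stood in 2 of 12, at -59 in Hnf4a and -213 in Foxa2, against 8.40% of all windows. HNF4A letters were in 0 of 12 (4.21% of all windows) and C/EBP letters in 0 of 12 (10.8% of all windows). The Hnf4a window shown belongs to the upstream of its 2 starts in the table, and counts per gene do not separate transcripts from the 2 starts.

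Library totals ran from 15364342 to 17369118 counts in napabucasin livers and from 14124484 to 17759967 counts in vehicle livers. Genes of the mitochondrial genome took 9.03% to 19.9% of counts in napabucasin livers and 7.03% to 19.02% in vehicle livers. Genes for ribosomal RNA took 0.426% to 1.09% in napabucasin livers and 0.195% to 0.912% in vehicle livers. Summed hepatocyte markers lay between 91540 and 152500 CPM (counts scaled to a common library size, adjusted by the trimmed mean of M-values, TMM) in napabucasin livers and between 67690 and 184800 CPM in vehicle livers, as the tissue label has it. Of 17 pancreas markers, 6 were at 0 in every library, among them Pdx1 and Ins1.

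At the level of the network, 7 of the 9 factors had a lower estimate in napabucasin livers and 4 of them, Cebpa, Onecut1, Onecut2 and Prox1, had an unadjusted p under 0.05. None passed the adjusted threshold of 0.05 in edgeR's quasi-likelihood test, nor did any other gene (0 of 14244, or 0%). At the unadjusted threshold the test gave 830 lower genes, 5.83% of those tested, and 1331 higher genes, 9.34%. The count of 4 of 9 factors stands beside that 5.83%, and 0 of 9 factors stand beside the 9.34%. The 9 factors were chosen with earlier results of these data known, so these counts are descriptions and not a test of the network. The median log2 fold change (napabucasin over vehicle) was -0.44 over the 9 factors and 0.00098 over all genes tested, 49.88% of which were below 0. In 2 factors, Cebpa and Prox1, all napabucasin libraries lay below all vehicle libraries, a pattern found in 0.934% of genes tested.

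Other tools gave more calls. DESeq2 called 51 genes lower (0.343% of 14871) and limma-voom with quality weights called 41 lower (0.288% of 14244), and Prox1 was the 1 factor of the 9 that passed in each. Without vehicle replicate 1 edgeR called 18 genes and without napabucasin replicate 5 it called 3, none of them among the 9. All p-values rest on the variation among these 10 libraries alone.

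**Figure D1:**
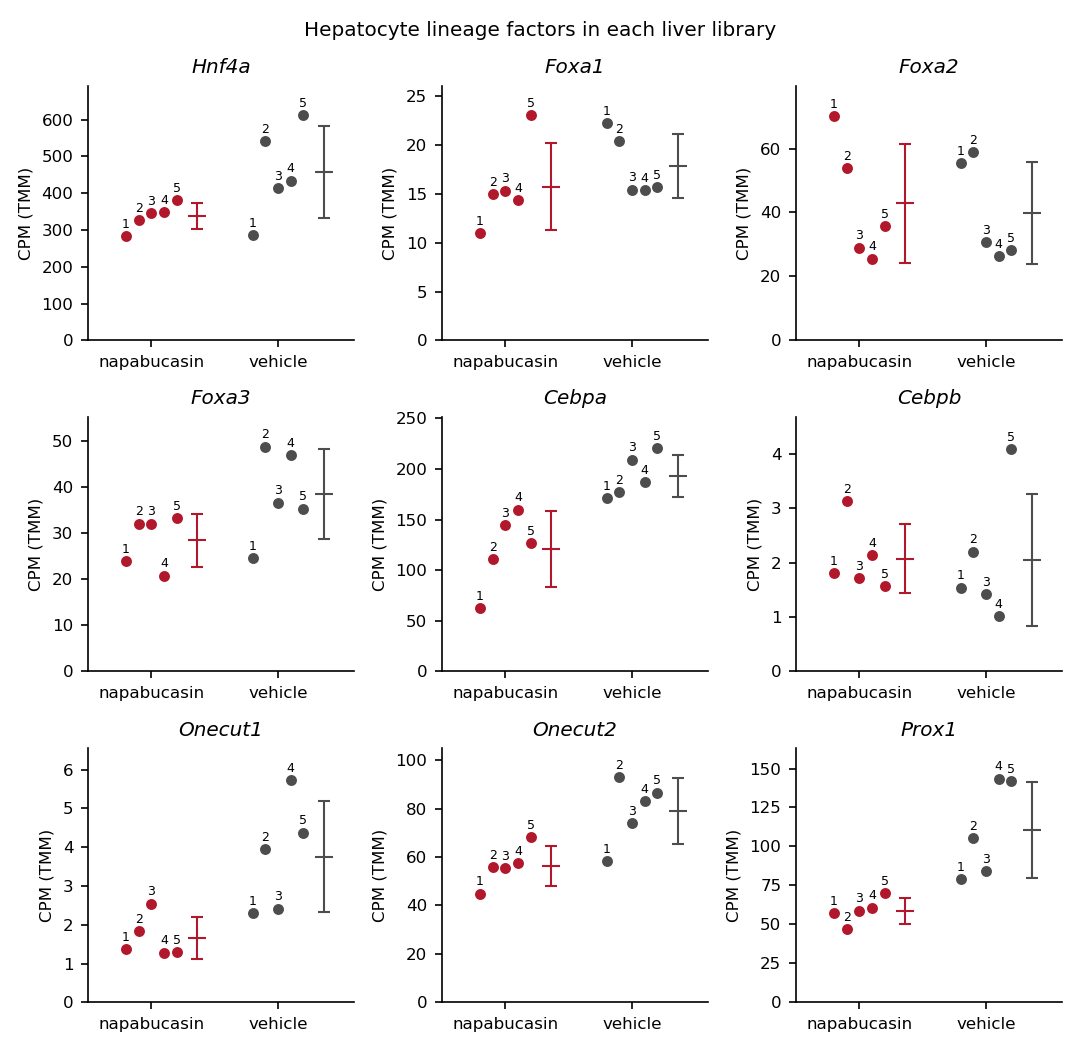
CPM with TMM scaling of each factor in the 5 napabucasin libraries (red, left) and the 5 vehicle libraries (grey, right), numbered as in the labels, with the group mean ± SD beside the points. The groups do not overlap in Cebpa and Prox1, and replicates 1 and 2 of both groups stand above the rest in Foxa2.

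Prox1 showed the smallest p among the 9 factors. Prox1 (ENSMUSG00000010175, chromosome 1, 190118035 to 190170714, GRCm38) measured 57.2, 47.1, 58.8, 60.7 and 70.3 CPM in napabucasin livers 1 to 5. Vehicle livers 1 to 5 measured 79.0, 105.5, 84.1, 143.5 and 141.8 CPM. Every napabucasin library lay below every vehicle library, and the vehicle livers were spread more widely. The means were 58.8 ± 8.27 CPM with napabucasin and 110.8 ± 30.8 CPM with vehicle (SD, n = 5 each). The log2 fold change of Prox1 was -0.91 (SE 0.21, 95% interval -1.36 to -0.47), with an unadjusted p of 0.000598 and an adjusted p of 0.166 in edgeR's quasi-likelihood test. By DESeq2 Prox1 fell, with a log2 fold change of -0.93 and an adjusted p of 0.00925, and by limma-voom it fell with -0.996 and an adjusted p of 0.0370. Over 24 alternative settings its estimate stayed between -1.03 and -0.80, and its adjusted p ranged from 0.00925 to 0.457.

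Prox1 is also the defining factor of lymphatic endothelium, so markers of that cell type were read beside it. Of 8 lymphatic endothelial markers tested, 6 had a higher and 2 a lower estimate, with a median of 0.51. At an unadjusted p under 0.05 were the chemokine Ccl21a (log2 fold change 2.36) and Reln (0.77) on the higher side and the receptor Nrp2 (-0.71) on the lower side, the last named after its value was seen. Summed over 12 markers, they lay between 77.6 and 124.9 CPM in napabucasin livers and between 56.9 and 76.0 CPM in vehicle livers. The lymphatic surface protein Pdpn measured 0.343 ± 0.243 CPM with napabucasin and 0.494 ± 0.195 CPM with vehicle (SD, n = 5 each), and none of the 12 was at 0 in every library. Without Reln, which is also a stellate cell marker, the sums of the other 11 overlapped, at 26.4 to 44.9 CPM with napabucasin and 17.9 to 43.2 CPM with vehicle. The part of lymphatic cells in the Prox1 values was not tested. In whole tissue, fewer cells of a type and less RNA per cell cannot be told apart.

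Hnf4a, the nuclear receptor of the network and its most abundant member, had a lower mean with napabucasin but overlapping groups. Hnf4a (ENSMUSG00000017950, chromosome 2, 163506808 to 163572910) measured 284, 328, 346, 348 and 381 CPM in napabucasin livers and 286, 542, 414, 434 and 612 CPM in vehicle livers. Vehicle replicate 1 was the only vehicle library inside the range of the napabucasin libraries. The means were 337.5 ± 35.6 CPM with napabucasin and 457.9 ± 125.4 CPM with vehicle (SD, n = 5 each). The log2 fold change of Hnf4a was -0.44 (SE 0.22, 95% interval -0.91 to 0.029), with an unadjusted p of 0.0638 and an adjusted p of 0.353 in edgeR's quasi-likelihood test. Its antisense neighbour Hnf4aos, which lies on the opposite strand, averaged 3.23 ± 1.08 CPM with napabucasin and 4.56 ± 1.96 CPM with vehicle (SD, n = 5 each).

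Estimates for the 3 FOXA genes ran from -0.44 to 0.10 with overlapping intervals, and the difference between genes was not tested. Foxa3 (ENSMUSG00000040891, chromosome 7, 19013284 to 19023538), which in mice supports hepatic glucose output during fasting, measured 23.9, 32.1, 32.1, 20.8 and 33.3 CPM in napabucasin livers. In vehicle livers Foxa3 measured 24.6, 48.8, 36.6, 47.0 and 35.3 CPM, and vehicle replicate 1 was again the only vehicle library inside the napabucasin range. Foxa3 had a log2 fold change of -0.44 (SE 0.21, 95% interval -0.89 to 0.015), with an unadjusted p of 0.0570. Without vehicle replicate 1 the log2 fold change was -0.57 for Foxa3 and -0.59 for Hnf4a, with unadjusted p of 0.0125 and 0.0126 and an adjusted p of 0.192 for each in edgeR's quasi-likelihood test. Other libraries pulled the other way: Hnf4a was at -0.31 without vehicle replicate 5 (unadjusted p of 0.179). Without the 3 libraries highest in ribosomal RNA genes (napabucasin replicates 1 and 2 and vehicle replicate 2) Hnf4a was at -0.27 and Foxa3 at -0.31, with unadjusted p of 0.296 and 0.232. The mitochondrial share of vehicle replicate 1 was 19.02%, against 7.03% to 8.78% in the other vehicle libraries, and its part in these values was not tested.

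Foxa1 (ENSMUSG00000035451, chromosome 12, 57540628 to 57546916), which acts with Foxa2 in liver specification in mice, measured 10.97, 14.9, 15.3, 14.3 and 23.1 CPM in napabucasin livers. In vehicle livers Foxa1 measured 22.2, 20.4, 15.4, 15.4 and 15.7 CPM. Napabucasin replicate 5 was the highest of all 10 libraries and napabucasin replicate 1 the lowest. For Foxa1 the log2 fold change was -0.18 (SE 0.21, 95% interval -0.63 to 0.27), with an adjusted p of 0.671 in edgeR's quasi-likelihood test.

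Foxa2 (ENSMUSG00000037025, chromosome 2, 148042877 to 148046969), a regulator of fasting and bile acid metabolism in mouse liver, stood at 2 levels that followed the replicate number in both groups. It measured 70.0, 53.8, 29.0, 25.6 and 35.7 CPM in napabucasin livers and 55.4, 58.8, 30.6, 26.3 and 28.2 CPM in vehicle livers. Replicates 1 and 2 of both groups lay above all of replicates 3 to 5. The log2 fold change of Foxa2 was 0.10 (SE 0.31, 95% interval -0.57 to 0.78), with an adjusted p of 0.886 in edgeR's quasi-likelihood test. Mitochondrial genes took 19.9% and 15.3% of counts in napabucasin replicates 1 and 2, and 19.02% and 7.08% in vehicle replicates 1 and 2. Genes for ribosomal RNA took 1.09% in each of those napabucasin libraries, and 0.347% and 0.912% in those vehicle libraries. The part of either share in the Foxa2 values was not tested, and the labels do not say what libraries of 1 number have in common.

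The long intergenic RNA 9030622O22Rik lies on the same strand as Foxa2, 2674 bases away (chromosome 2, 147944740 to 148040203). It measured 46.6, 26.8, 15.4, 9.83 and 17.3 CPM in napabucasin livers and 14.8, 9.97, 11.8, 8.49 and 13.6 CPM in vehicle livers. Napabucasin replicates 1 and 2 were the highest, and in vehicle replicate 2 the RNA was low although Foxa2 was high. Its log2 fold change was 0.99 (SE 0.35), with an unadjusted p of 0.0135 and an adjusted p of 0.260 in edgeR's quasi-likelihood test. Without napabucasin replicate 1 it was 0.57, and without the 3 libraries highest in ribosomal RNA genes it was 0.24. Since Foxa2 stood at 2 levels, no correlation of this RNA with Foxa2 over all 10 libraries is given. Within replicates 3 to 5 of both groups, as deviations from the group means over 6 libraries, 9030622O22Rik and Foxa2 correlated with r = 0.80 and rho = 0.83, each with an exact permutation p of 0.139, where the smallest p the 36 permutations can give is 0.0278. This was the 1 neighbour for which such a correlation was computed, and it was chosen after its values were seen.

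**Figure D2:**
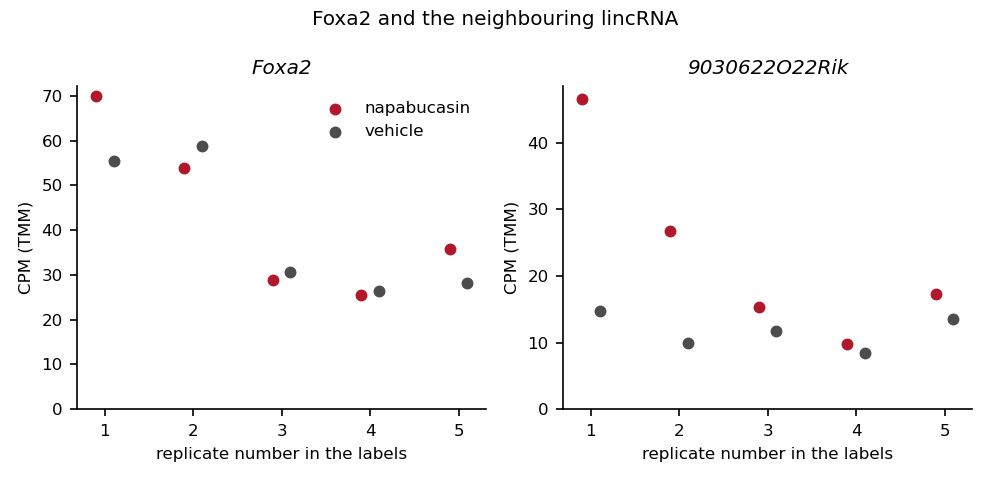
CPM with TMM scaling of Foxa2 (left panel) and of the neighbouring lincRNA 9030622O22Rik (right panel) against the replicate number in the labels, with napabucasin in red and vehicle in grey. Foxa2 is high in replicates 1 and 2 of both groups, while the lincRNA is highest in napabucasin replicates 1 and 2.

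Of the C/EBP pair, Cebpa was abundant and lower in every napabucasin library, and Cebpb was scarce with overlapping groups. Cebpa (ENSMUSG00000034957, chromosome 7, 35119293 to 35121928), which maintains gluconeogenesis and ammonia disposal in mouse hepatocytes, measured 62.2, 110.8, 144.8, 159.9 and 126.4 CPM in napabucasin livers. In vehicle livers Cebpa measured 171.5, 177.2, 209.1, 187.3 and 220.6 CPM. All napabucasin libraries were below all vehicle libraries, with napabucasin replicate 1 the farthest down. The means were 120.8 ± 37.6 CPM with napabucasin and 193.1 ± 21.0 CPM with vehicle (SD, n = 5 each). The log2 fold change of Cebpa was -0.68 (SE 0.23, 95% interval -1.18 to -0.18), with an unadjusted p of 0.0115 and an adjusted p of 0.256 in edgeR's quasi-likelihood test. Without napabucasin replicate 1 the log2 fold change was -0.51, and without the 3 libraries highest in ribosomal RNA genes it was -0.44, with an unadjusted p of 0.0297.

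Cebpb (ENSMUSG00000056501, chromosome 2, 167688915 to 167690418), a factor of the acute phase and of liver regeneration, had low counts, 18 to 58 a library. It measured 1.81, 3.14, 1.71, 2.14 and 1.57 CPM in napabucasin livers and 1.54, 2.20, 1.42, 1.01 and 4.09 CPM in vehicle livers. Vehicle replicate 5 was the highest and vehicle replicate 4 the lowest, so the vehicle range enclosed the napabucasin range. Cebpb had a log2 fold change of 0.019 (SE 0.39, 95% interval -0.82 to 0.86), with an adjusted p of 0.984 in edgeR's quasi-likelihood test. The interval leaves room for a sizeable difference either way at this depth.

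Both ONECUT genes had a lower estimate with napabucasin. Onecut1 (ENSMUSG00000043013, chromosome 9, 74861921 to 74891781), which activates bile acid and glucose genes in mouse liver, measured 1.37, 1.84, 2.54, 1.28 and 1.30 CPM in napabucasin livers. In vehicle livers Onecut1 measured 2.31, 3.95, 2.42, 5.73 and 4.38 CPM. Napabucasin replicate 3 alone reached into the vehicle range, above vehicle replicates 1 and 3. For Onecut1 the estimated log2 fold change was -1.17 (SE 0.33, 95% interval -1.89 to -0.45), with an unadjusted p of 0.00357 and an adjusted p of 0.223 in edgeR's quasi-likelihood test. This was the lowest estimate of the 9, on counts of 19 to 46 in napabucasin libraries and 27 to 102 in vehicle libraries. For napabucasin replicate 5, the lowest, the 19 counts carry an exact 95% Poisson interval of 11.4 to 29.7 counts, which covers counting error only.

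Onecut2 (ENSMUSG00000045991, chromosome 18, 64340364 to 64398488), the paralog that shares part of the role of Onecut1 in mouse liver development, measured 44.9, 55.9, 55.5, 57.4 and 68.3 CPM in napabucasin livers. In vehicle livers Onecut2 measured 58.2, 93.0, 74.0, 83.0 and 86.5 CPM. Vehicle replicate 1 was the only vehicle library inside the napabucasin range, as for Hnf4a and Foxa3. In Onecut2 the log2 fold change was -0.49 (SE 0.17, 95% interval -0.86 to -0.11), with an unadjusted p of 0.0144 and an adjusted p of 0.264 in edgeR's quasi-likelihood test. Leaving out the 3 libraries with the highest share of ribosomal RNA genes moved it to -0.31, with an unadjusted p of 0.113. With library sizes only and no TMM scaling the unadjusted p was 0.0670.

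Onecut1 is also expressed in bile ducts, and bile duct markers were read beside it. Of 15 cholangiocyte markers tested, 6 had a higher and 9 a lower estimate, 0 had an unadjusted p under 0.05 and the median log2 fold change was -0.16. Summed over 16 markers they lay between 345.9 and 592.3 CPM in napabucasin livers and between 288.3 and 576.5 CPM in vehicle livers, so the groups overlapped almost wholly.

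**Figure D3:**
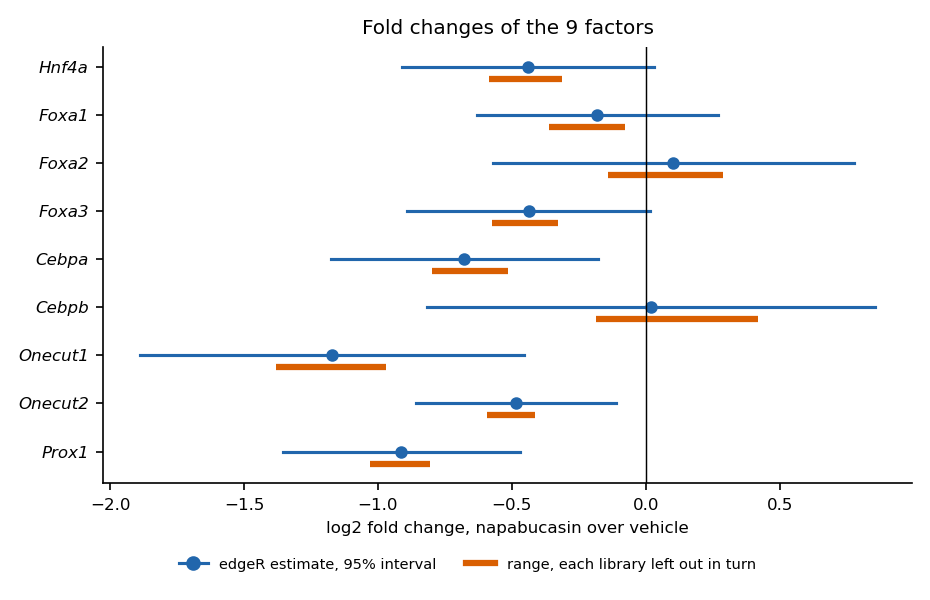
Log2 fold change (napabucasin over vehicle) of each factor with its 95% interval (blue) and the range of estimates when each of the 10 libraries is left out in turn (orange). The intervals of Cebpa, Onecut1, Onecut2 and Prox1 lie below 0, and the estimates of Foxa2 and Cebpb take both signs when libraries are left out.

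By replicate number, napabucasin was below vehicle in 5 of 5 same-numbered pairs for Hnf4a, Foxa3, Cebpa, Onecut2 and Prox1. The count was 4 of 5 for Foxa1 and Onecut1, 3 of 5 for Foxa2 and 1 of 5 for Cebpb. For Cebpa and Prox1, whose groups do not overlap, any pairing gives 5 of 5. The labels state no pairing, and the share of all genes tested at 5 of 5 was not computed. These counts are therefore descriptions with no background beside them. Leaving out each library in turn kept the unadjusted p of Cebpa, Onecut1, Onecut2 and Prox1 under 0.05 in 10 of 10 fits.

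Levels were compared between genes on the deposited FPKM scale, which divides by exon length. Mean FPKM over the 10 libraries was 81.7 for Hnf4a, 59.1 for Cebpa, 17.2 for Foxa2, 16.3 for Foxa3 and 10.03 for Prox1. Below them came Onecut2 at 5.01 FPKM, Foxa1 at 4.99, Cebpb at 1.36 and Onecut1 at 0.655. Hnf4a was above Cebpa in 9 of 10 libraries, the exception being vehicle replicate 1. Cebpa was above Foxa2 in 9 of 10, the exception being napabucasin replicate 1, and Foxa3 was above Prox1 in 10 of 10. Foxa2 and Foxa3 could not be ordered (Foxa2 above in 5 of 10 libraries), and neither could Onecut2 and Foxa1 (Onecut2 above in 5 of 10).

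Within families the shares of summed FPKM were uneven. Onecut1 made up 5.84% to 12.98% of the ONECUT pair in napabucasin livers and 9.60% to 18.4% in vehicle livers, the rest being Onecut2. Cebpb made up 2.03% to 4.85% of the C/EBP pair in napabucasin livers and 0.938% to 3.15% in vehicle livers. Foxa2 made up 37.5% to 66.3% of the FOXA trio in napabucasin livers and 28.6% to 55.5% in vehicle livers. All these ranges overlap between the groups, and no test was run on the shares.

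Part of the exon sequence of some factors is also annotated to another gene, which bears on their level. In GENCODE vM21, 2171 of the 4113 exon bases of Onecut1 (52.8%) are shared with Gm20649 on the same strand, and Gm20649 had 0 counts in all 10 libraries. For Cebpb, 312 of 1504 exon bases (20.7%) are shared with Tmem189 on the opposite strand, which averaged 11.6 ± 3.12 CPM with napabucasin and 11.9 ± 2.19 CPM with vehicle (SD, n = 5 each). If reads in shared bases were not counted for either gene, mean FPKM per unshared length would be 1.39 for Onecut1 and 1.72 for Cebpb. Both values would still be below the 4.99 of Foxa1. If counting used strand, Onecut1 alone would lose reads, and its 1.39 would stand beside 1.36 for Cebpb, so the order of the 2 is not settled. The sources used here do not state whether the authors' counting used strand, and these 2 levels are uncertain. Fewer exon bases are shared for Cebpa (1.94%, with Gm45091) and Prox1 (1.59%, with Prox1os), and 0 for the other 5.

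**Figure D4:**
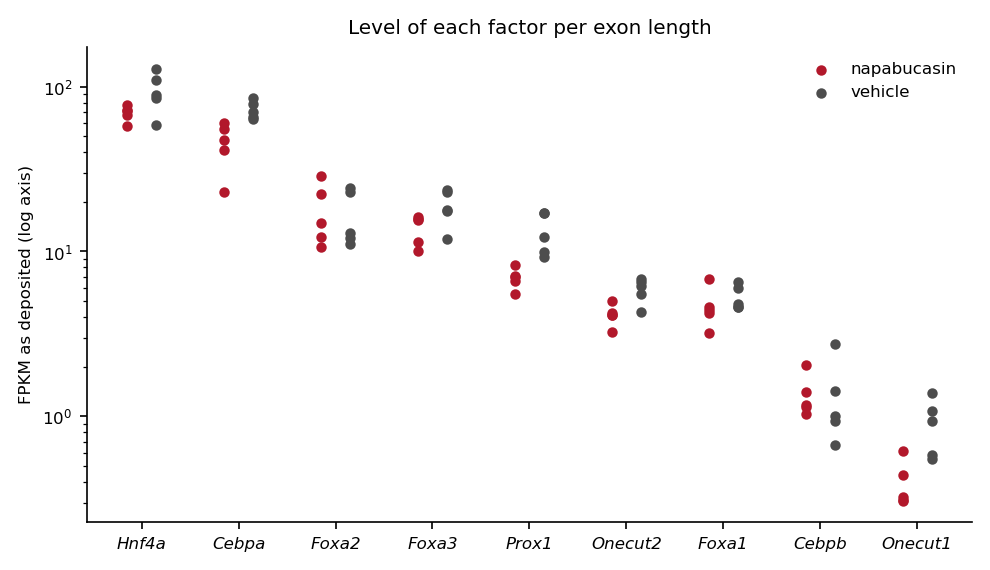
Deposited FPKM of each factor (log axis) in napabucasin libraries (red, left of each pair) and vehicle libraries (grey, right), in order of mean level. By mean, Hnf4a and Cebpa stand above the rest, and Cebpb and Onecut1 are lowest, at means of 1.36 and 0.655 FPKM. In napabucasin replicate 1 Cebpa (23.0 FPKM) lies below Foxa2 (28.8 FPKM).

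Of the relations among the factors, that of Hnf4a and Onecut2 passed the adjusted threshold by Pearson's r and not by Spearman's rho. Log2 CPM was taken as deviation from the group mean, so that the treatment difference itself does not enter, and 36 pairs were computed over 10 libraries. Hnf4a and Onecut2 correlated with r = 0.89 (permutation p = 0.00104, adjusted p = 0.0187) and rho = 0.89 (permutation p = 0.00328, adjusted p = 0.0675), and r was 0.93 without the 2 libraries farthest from the median. The permutations shuffled libraries within groups as independent, although the replicate numbers were taken to pair them. The other pair with an adjusted p under 0.05 was Foxa2 and Cebpa, with a negative r, but Foxa2 stood at 2 levels by replicate number. Within replicates 3 to 5 of both groups, over 6 libraries, Foxa2 and Cebpa had r = -0.60 (exact permutation p = 0.333) and rho = -0.49 (exact permutation p = 0.583). In the same 6 libraries Hnf4a and Onecut2 had r = 0.65 (exact permutation p = 0.139) and rho = 0.77 (exact permutation p = 0.111). With 36 permutations and a smallest p of 0.0278, these 6 libraries can show little. Of the 36 pairs 26 had a positive r, and 0 passed by Spearman's rho after adjustment. The share of all gene pairs that reach such values was not computed, so these counts have no background beside them. On the same deviations r was 0.97 for Onecut2 with Surf6 and 0.96 for Hnf4a with Larp7. Surf6 and Larp7 were picked from 10126 genes as most like these factors. The r of Hnf4a with Onecut2 is therefore not shown to be particular to the network. All genes of a library share its depth and composition, and the part of either in these relations was not tested.

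For each factor the genes most like it were taken as those with the highest Pearson r of log2 CPM over the same 10 libraries, treatment difference included. These are descriptions over 10126 or 10127 genes of at least 5 CPM. Cebpa was most like Ptcd2 (r = 0.98) and Grpel1 (0.98), Onecut2 most like Surf6 (0.99) and Tmem115 (0.97), and Hnf4a most like Larp7 (0.97) and Xpo4 (0.97). Prox1 was most like Nmd3 (0.96) and Tmtc2 (0.95), and Foxa2 most like Zfp420 (0.96) and Ankrd27 (0.95). Like Foxa2, Zfp420 and Ankrd27 were higher in replicates 1 and 2 of both groups than in all of replicates 3 to 5. The r values of Foxa2 therefore carry that split by replicate number. Foxa3 was most like Lysmd1 (0.92) and Fam76a (0.91), Foxa1 most like Pym1 (0.90) and Foxp1 (0.89), and Onecut1 most like Asb8 (0.89) and Gtpbp4 (0.88). Cebpb, the noisiest, reached 0.76 with Cwc22 and 0.75 with Virma. None of these 18 places was taken by another of the 9 factors.

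Other genes within 10000 bases of a factor were read for the same pattern. Near Onecut1, Gm16551 had a CPM of 3.62 ± 0.985 with napabucasin and 5.82 ± 0.538 with vehicle (SD, n = 5 each), with an unadjusted p of 0.0136. Near Foxa3, Irf2bp1 had 12.7 ± 1.57 CPM with napabucasin and 16.1 ± 0.997 CPM with vehicle, while Sympk had 41.3 ± 4.65 CPM with napabucasin and 41.1 ± 6.92 CPM with vehicle (SD, n = 5 each). Prox1os, antisense to Prox1, had 5.12 ± 0.829 CPM with napabucasin and 7.34 ± 2.58 CPM with vehicle, and Gm45091, antisense to Cebpa, had 1.56 ± 0.301 CPM with napabucasin and 2.20 ± 0.732 CPM with vehicle (SD, n = 5 each). Gm28172, R3hdml, A530013C23Rik, Gm25881, Gm27420 and Gm28182 were each at most 1.42 CPM in every library.

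Genes listed as targets of HNF4A, FOXA and C/EBP factors had more lower than higher estimates, and those listed for ONECUT factors did not. These counts are descriptions and not tests of the lists. Whether a factor drives the genes listed under it in these livers was not tested. The lists come from general knowledge, share genes with one another and with hepatocyte markers, and were drawn up with earlier results of these data known. Values in brackets after a gene are log2 fold changes, and p under 0.05 is unadjusted, a level reached on the lower side by 5.83% and on the higher side by 9.34% of all genes tested, with 0 genes past the adjusted threshold in edgeR's quasi-likelihood test. Of 36 HNF4A targets tested, 29 had a lower and 7 a higher estimate, and at an unadjusted p under 0.05 there were 6 lower and 0 higher, with a median of -0.21. The 4 with the smallest p were Cyp4a10, a fatty acid hydroxylase (-1.28), Cyp8b1, the sterol hydroxylase that makes cholic acid (-1.75), the apolipoprotein Apoa4 (-0.67) and the deiodinase Dio1 (-1.02). Of 20 FOXA targets 14 were lower and 6 higher (4 lower and 0 higher at p under 0.05, median -0.22), led by Cpt1a, which carries fatty acids into mitochondria (-0.92).

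Of 20 C/EBP alpha targets 13 were lower and 7 higher (3 lower and 0 higher at p under 0.05, median -0.24), among them Fbp1 of gluconeogenesis (-1.31) and Ass1 of the urea cycle (-0.69). Of 25 acute phase genes listed under C/EBP beta 23 were lower and 2 higher (4 lower and 0 higher at p under 0.05, median -0.38). The log2 fold change of Cebpb itself was 0.019. The smallest p in that list was that of Hamp, the iron hormone hepcidin. Hamp measured 221.7 ± 108.8 CPM with napabucasin and 807.1 ± 487.9 CPM with vehicle (SD, n = 5 each). Its log2 fold change was -1.86 with an adjusted p of 0.185 in edgeR's quasi-likelihood test, 0.00273 by DESeq2 and 0.0921 by limma-voom. Saa1 and Saa2, serum amyloid genes whose near-identical reads can be split uncertainly, were at -1.10 and -1.20.

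Of 14 ONECUT targets 6 were lower and 8 higher (2 lower and 0 higher at p under 0.05, median 0.027). The 2 are Cyp7a1, whose enzyme sets the rate at which bile acids are made, and Cyp8b1. Cyp7a1 measured 4.86, 4.82, 6.14, 2.83 and 17.8 CPM in napabucasin livers and 28.1, 23.5, 84.1, 49.4 and 36.04 CPM in vehicle livers. The groups did not overlap, and the log2 fold change of Cyp7a1 was -2.61 (SE 0.48) with an adjusted p of 0.157 in edgeR's quasi-likelihood test. By DESeq2 and limma-voom Cyp7a1 fell, with adjusted p of 1.509e-05 and 0.0189. PROX1 is known as a corepressor of HNF4A at the Cyp7a1 gene, and Prox1 and Cyp7a1 both lay on the lower side here. Nr0b2, which encodes the corepressor SHP of the same gene, measured 115.6 ± 27.6 CPM with napabucasin and 61.1 ± 26.8 CPM with vehicle (SD, n = 5 each), with a log2 fold change of 0.92 and an adjusted p of 0.235 in edgeR's quasi-likelihood test. The part of either corepressor in the Cyp7a1 values was not tested.

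Among 17 coregulators that work with these factors 13 had a higher and 4 a lower estimate, of which 4 higher and 0 lower ones were at an unadjusted p under 0.05, and the median was 0.21. Beside Nr0b2 they included the coactivators Ncoa3 (0.56) and Ep300 (0.34). Of 55 other liver transcription factors tested 32 were lower and 23 higher (4 lower and 4 higher at p under 0.05, median -0.10), near the shares of 5.83% lower and 9.34% higher over all genes. The smallest p in that list was that of Tbx3, a T-box factor of hepatoblast growth, with 9.74 ± 3.38 CPM under napabucasin and 23.7 ± 5.41 CPM under vehicle (SD, n = 5 each). Its adjusted p was 0.157 in edgeR's quasi-likelihood test, 0.00133 by DESeq2 and 0.0189 by limma-voom. Ppard (1.15) and Mlxipl (1.23), regulators of fatty acid and carbohydrate use, lay on the higher side. Of 12 fetal liver genes tested 8 were higher and 4 lower, with Mest (1.00) the 1 at an unadjusted p under 0.05.

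Markers of cell types were read in the same comparison. Of 19 hepatocyte markers tested 18 had a lower and 1 a higher estimate, with a median log2 fold change of -0.34 against -0.44 for the 9 factors. At an unadjusted edgeR p under 0.05 were 3 lower and 0 higher ones, beside shares of 5.83% and 9.34% over all genes tested. Of 18 lymphocyte markers 17 had a higher estimate, 16 of them at an unadjusted p under 0.05, with a median of 1.18. Summed lymphocyte markers lay between 98.7 and 171.3 CPM in napabucasin livers and between 54.6 and 82.0 CPM in vehicle livers. All 15 sinusoidal endothelial, 14 Kupffer cell and 14 stellate cell markers tested had a higher estimate, with medians of 0.65, 0.65 and 0.60. Of these, 4, 2 and 6 had an unadjusted edgeR p under 0.05. Their summed CPM overlapped between the groups, unlike that of lymphocyte markers. Sinusoidal markers summed to 449.2 to 702.3 CPM with napabucasin and 194.6 to 493.5 CPM with vehicle. Kupffer cell markers summed to 930.5 to 3254 and 503.9 to 2535 CPM, and stellate cell markers to 581.2 to 1443 and 472.9 to 679.1 CPM. Of 13 neutrophil and monocyte markers 12 had a higher and 1 a lower estimate, with a median of 0.45. Their sums overlapped too, at 146.1 to 507.2 CPM with napabucasin and 93.4 to 531.1 CPM with vehicle. The part of cell composition in the values of the factors was not tested.

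**Figure D5:**
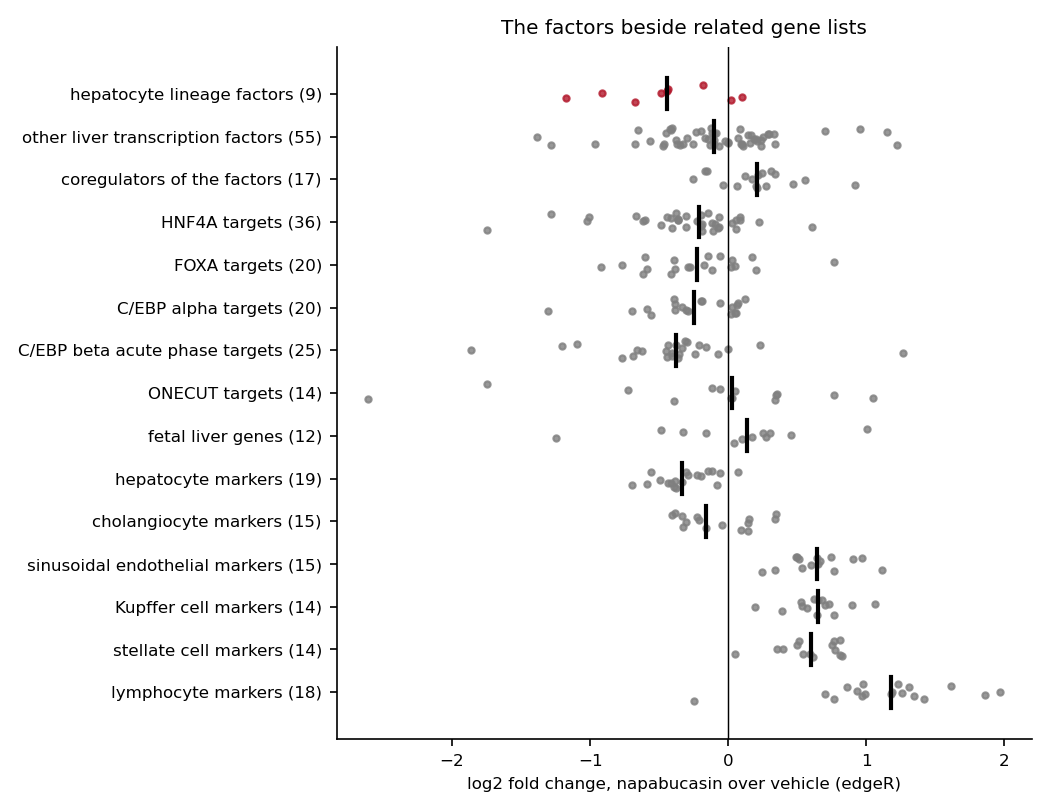
Log2 fold change (napabucasin over vehicle, edgeR) of each tested gene, by list, with the number tested in brackets, the 9 factors in red at the top and black bars for medians. Target and hepatocyte lists have medians from -0.38 to 0.027, and the sinusoidal endothelial, Kupffer cell, stellate cell and lymphocyte lists have medians of 0.60 to 1.18.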

How the data were processed

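Polyadenylated RNA of 10 mouse livers was sequenced, 5 after napabucasin and 5 after vehicle, and groups and replicate numbers were taken from the sample titles. The deposited counts are whole reads per gene, not normalized. The submitters' processing notes name HISAT2 2.0.5, featureCounts 1.5.0-p3 and CASAVA as tools and GRCm38 (mm10) as build. Strand setting and annotation release: not given in the sources used here. FPKM was deposited as the authors computed it. Checked on the values, each library was divided by its size factor (median of ratios) times a constant, the geometric mean of all totals. FPKM served only to compare levels between genes and as an alternative.

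The test ran over all genes in edgeR 4.0.16 under R 4.3.3: filterByExpr, TMM, robust quasi-likelihood F test, treatment as the only term, Benjamini-Hochberg adjustment over 14244 genes, threshold 0.05. These steps were first tested on simulated data. Standard errors are those implied by the F statistic. CPM values use TMM library sizes, and log2 CPM used for correlations has a prior count of 2. Permutation tests of correlations were two-sided, with 100000 resamples within groups. Totals were 14124484 to 17759967 counts, and intervals on counts cover counting error only.

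The factors and the lists were chosen with earlier results of these data known. All 9 factors were named whatever their p. Each list of related genes gave the 4 with the smallest p and each marker list the first marker and the 2 with the smallest p, and not all of these are printed, since some genes that the rule names are not reported here. Of the list names, Tf and Cyp2c44 were not matched in the table. Exon overlaps came from GENCODE vM21, whose exon length equalled that of the count table for 8 of the 9 factors; Onecut2 has 16234 bases there and 13391 in the table.

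Alternatives were size-factor or library-size normalization, no filter or at least 1 CPM in 5 libraries, a non-robust test, a replicate block, counts without mitochondrial genes, limma 3.58.1 as voom with quality weights, DESeq2 1.42.0, limma on the deposited FPKM as log2(FPKM + 1), with or without a minimum mean FPKM of 0.5, and as log2(FPKM + 0.1) with it, and each library left out. Leaving out the 3 libraries highest in ribosomal RNA genes, and the 2 highest in mitochondrial genes, was added after seeing the data, as was the use of counts without mitochondrial genes beyond the fold changes of the 9 factors. What libraries of 1 replicate number have in common is not in the labels. Their deviations from the group means correlated at 0.154, 0.227, 0.208, 0.27 and 0.278 (numbers 1 to 5). Since each exceeded 0.1, the numbers were taken to pair the samples, a reading of the data and not of the design. Values for libraries of unequal numbers were not kept for comparison, so these correlations cannot establish a pairing. The p-values and intervals of the main fit do not use it.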

Additional observations from a re-analysis of the deposited data

Results flagged for a closer look

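In 62 groups of 5 libraries the highest or lowest value was compared with the rest by Dixon's ratio (critical value 0.71), which chance exceeds in about 3.1 of 62 groups, and 2 exceeded it. Prox1os, the antisense neighbour of Prox1, measured 11.94 CPM in vehicle replicate 2, where the other vehicle libraries measured 5.79 to 6.40 CPM. Prox1 itself measured 105.5 CPM in that library, the median of the vehicle livers. The summed Kupffer cell markers measured 930.5 CPM in napabucasin replicate 5, where the other napabucasin libraries measured 2984 to 3254 CPM. In that library the 9 factors lay inside or above the range of the other napabucasin livers, except Cebpb at 1.57 CPM, the lowest.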

How the results depend on the processing

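Of 1241 values recomputed under the alternatives, 1208 kept their direction and their side of the adjusted threshold, 20 were stronger and 13 reversed. With 0 genes past that threshold in the main fit, this count says little about stability. Unadjusted p could still cross 0.05, as for Onecut2 in edgeR's quasi-likelihood test. It was 0.0144 in the main fit and 0.113 without the 3 libraries highest in ribosomal RNA genes. The count of genes at an adjusted p under 0.05, 0 in edgeR's quasi-likelihood test, was 1 with library sizes only, 19 with no filter on low counts, 205 with DESeq2, 156 with limma-voom, 1 on log2(FPKM + 0.1), 7 without the 2 libraries highest in mitochondrial genes, and 0 to 18 with each library left out. Of the 9 factors 1, Prox1, passed with DESeq2 and 1, again Prox1, with limma-voom. With the replicate block (paired fit) 0 genes and 0 factors passed, so the pairing changed no call. In that edgeR quasi-likelihood fit 4 factors had an unadjusted p under 0.05. Their unadjusted and adjusted p were 0.000454 and 0.068 for Prox1 and 0.00406 and 0.103 for Cebpa. For Onecut1 they were 0.00866 and 0.127, and for Onecut2 0.00744 and 0.121. Over all settings the number of factors at an unadjusted p under 0.05 ran from 3 to 6. The share of all genes at that level was taken in the main edgeR fit only (5.83% lower, 9.34% higher). The range therefore has no background in the other settings and does not measure stability.

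The sign turned for 3 factors whose intervals span 0. Foxa1 was 0.044 without the 3 libraries highest in ribosomal RNA genes and 0.013 without the 2 highest in mitochondrial genes. Foxa2 ran from -0.14 to 0.29 with each library left out and was -0.21 without the 3 libraries highest in ribosomal RNA genes. Cebpb was -0.013 with no filter, ran from -0.19 to 0.42 with each library left out, and was -0.14 and -0.016 without the same 3 and 2 libraries. The cause was not tested. Counts of 18 to 58 limit Cebpb and counts of 19 to 102 limit Onecut1.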
